A study of Mus musculus with 12 samples.

Results

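The protamines Prm1 and Prm2, the transition proteins Tnp1 and Tnp2, the linker histone H1fnt (also named H1f7) and the sperm structure genes Smcp and Odf1 were followed in mouse female germline stem cells (FGSCs) after Usp7 overexpression or knockdown. The 7 genes were chosen by symbol from earlier results of the same libraries, in which they were low, so their folds are given as a description and not as a test. All 7 were among the 647 genes (648 transcripts) deposited for overexpression, and 2 of them, Smcp and Odf1, were among the 3127 genes (3156 transcripts) deposited for knockdown. Prm1, Prm2, Tnp1, Tnp2 and H1fnt were not listed for knockdown and were not analysed there.

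FGSCs are germ cells of the ovary that can be kept in culture. Total RNA of C57BL/6 cells was sequenced in 4 groups of 3 libraries: Usp7 overexpression, its own control, Usp7 knockdown, and its own control. Usp7 encodes a deubiquitinase. Construct, vector, promoter, cell line, passage and time were not given in the sources used here, nor whether replicates came from separate cultures, so errors measure the spread between libraries only. Both deposited tables hold only transcripts that the authors had selected as changed on the same libraries, where the smallest fold in the authors' deposited table was 1.5007 for overexpression and 1.5003 for knockdown. Usp7 itself was not listed, so its level gave no check of the labels. Of 26 genes on a list drawn up for undifferentiated germ cells, 2 (Mael and Tex101) were listed for overexpression and 8 for knockdown. Tex101 is also on the list of acrosome and sperm surface genes used below, so the list is not specific to undifferentiated cells. Ddx4, Dazl and Dppa3, which define the labelled cell type, were not analysed here.

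In the testis, protamines replace histones in the nuclei of elongating spermatids and pack the paternal genome. Transition proteins occupy the DNA in the step between histones and protamines, and H1fnt is a spermatid linker histone needed for normal nuclear shaping in the mouse. Smcp is a cysteine-rich protein of the mitochondrial sheath around the sperm midpiece, and Odf1 is a main protein of the outer dense fibers of the sperm tail. Protamine, transition protein and Smcp mRNAs are made in round spermatids and stored before they are translated, and in mouse spermatids the factor CREM acts on several of these promoters through cAMP response elements.

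Prm1 (chr16:10796332-10796823), Prm2 (chr16:10791377-10792105) and Tnp2 (chr16:10787935-10788655) lie on the minus strand of GRCm38.p6 within 8.889 kb, together with Prm3, a gene of the same cluster. Tnp1 lies apart from them (chr1:73015074-73015899, minus strand), as do H1fnt (chr15:98255982-98257307, minus strand), Odf1 (chr15:38219203-38226735, plus strand) and Smcp (chr3:92583866-92589073, minus strand). H1fnt has 1 exon and the other 6 genes have 2. RefSeq promoter windows, from 250 bases before to 50 after the start, were found for 6 of the 7 genes, and Odf1 was missing. The windows were searched for TGACNTCA on both strands, a loosened form of the cAMP response element TGACGTCA. They were also searched for TATAAA and its variant TATATA on the gene strand. The stretches before the start are printed for Prm1 and Tnp1, which hold TGACNTCA, and for Prm2, which does not but holds TATATA. For Smcp, 30 bases after the RefSeq start are printed because the match lay there. All are from GRCm38.p6, 5′ to 3′ on the gene strand, which is the minus strand in each case, and capitals mark the match.
Prm1 (chr16:10796824-10797073): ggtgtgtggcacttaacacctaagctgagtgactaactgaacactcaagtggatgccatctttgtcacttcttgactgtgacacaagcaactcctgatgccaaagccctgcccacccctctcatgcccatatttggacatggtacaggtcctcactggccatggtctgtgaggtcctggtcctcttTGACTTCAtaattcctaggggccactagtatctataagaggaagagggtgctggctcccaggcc
Tnp1 (chr1:73015900-73016149): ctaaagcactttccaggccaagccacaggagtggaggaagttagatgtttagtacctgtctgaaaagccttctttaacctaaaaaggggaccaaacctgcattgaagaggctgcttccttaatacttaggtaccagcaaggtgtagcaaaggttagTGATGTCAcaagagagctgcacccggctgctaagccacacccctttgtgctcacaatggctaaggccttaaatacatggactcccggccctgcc
Prm2 (chr16:10792106-10792355): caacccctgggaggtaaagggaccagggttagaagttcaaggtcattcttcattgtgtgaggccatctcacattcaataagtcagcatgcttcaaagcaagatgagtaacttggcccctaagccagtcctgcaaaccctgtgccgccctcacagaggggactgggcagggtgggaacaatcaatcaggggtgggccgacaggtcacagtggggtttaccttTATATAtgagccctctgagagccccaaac
Smcp (chr3:92589031-92589060): ggagagtattaTGATGTCAtaaaagagctg

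Of the 6 windows, 3 held TGACNTCA. It was read as TGACTTCA in Prm1, with its first base at position -64 from the start. In Tnp1 the match at -94 lay on the other strand and read TGATGTCA on the gene strand, and Smcp had the same letters at position 25 after the RefSeq start. The GENCODE transcript of Smcp starts downstream of its match, and that of Prm1 starts within its match. Prm2 and Tnp2 held TATATA, at -29 and -35. The 6 windows held neither TATAAA nor the full TGACGTCA. Over all 32851 RefSeq windows, 8.83% held TGACNTCA, 1.79% held the full TGACGTCA, 8.32% held TATAAA and 5.67% held TATATA. TGACNTCA was found in 41 of 209 windows (19.6%) of genes lower in overexpression, the windows shown here included, and in 30 of 360 windows (8.33%) of genes higher. For knockdown the shares were 126 of 1482 windows (8.50%) of lower genes and 72 of 1244 (5.79%) of higher genes. These shares are descriptions of letters and were not tested.

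In overexpression, all 7 genes were lower than in the controls and their libraries did not overlap, beside 36% of the 648 listed transcripts that were lower in this way. With limma on log2(normalized count + 1) and a Benjamini-Hochberg adjusted p under 0.05, all 7 counted as lower, beside 34.7% of 613 transcripts tested, while 65.3% were higher. All 7 had passed the filter on low values, which each could do through its controls alone. That split of calls was 400 higher and 213 lower with the authors' scaling, and 201 higher and 257 lower with median-of-ratios scaling over the listed transcripts. Since the genes were chosen from this contrast, nothing is read from the share. Fewer cells of a type and less RNA per cell cannot be told apart in bulk RNA.

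Prm1, the protamine shared by all mammals, stood at 339, 369 and 358 normalized counts in control replicates 1 to 3. It stood at 3.90, 2.19 and 5.43 in overexpression replicates 1 to 3. Every overexpression library was thus far below every control, and the overexpression mean was 1.08% of the control mean (3.84 ± 1.62 against 355 ± 15.2, SD, n = 3 each). Prm2, the second protamine, which is made as a precursor and then cleaved, gave 712, 757 and 811 in controls and 1.95, 4.37 and 4.07 in overexpression. The groups were again far apart, with the overexpression mean at 0.456% of the control mean. The log2 folds were -6.26 ± 0.29 (SE) for Prm1 and -7.46 ± 0.26 for Prm2. By the authors' deposited table Prm2 had the lowest fold of all 648 transcripts, at -7.91.

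Tnp1 gave 101, 139 and 140 normalized counts in controls and 0.650, 0 and 5.43 in overexpression replicates 1 to 3. Tnp2 gave 323, 379 and 401 in controls and 1.30, 0 and 6.79 in overexpression. For both transition proteins replicate 2 was at 0 and replicate 3 was the highest of the overexpression libraries. Log2 folds were -5.84 ± 0.57 (SE) for Tnp1 and -7.13 ± 0.58 for Tnp2, the widest errors among the 7 genes. Without overexpression replicate 3 they were -6.61 and -7.92, and without replicate 2 Tnp2 was -6.44. Tnp1 is overlapped on the plus strand by 1700027A15Rik, and without strand information reads of the 2 genes cannot be told apart.

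H1fnt, the spermatid linker histone, gave 32.2, 76.5 and 65.7 normalized counts in controls and 1.30, 4.37 and 5.43 in overexpression. Its groups did not overlap, but its controls varied the most of the 7 genes, with a coefficient of variation of 39.7%. Its log2 fold was -3.69 ± 0.46 (SE). Values near 0 make these folds depend on the pseudocount. With 5 in place of 1 they were -5.36 for Prm1, -6.51 for Prm2, -4.29 for Tnp1, -5.69 for Tnp2 and -2.81 for H1fnt.

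**Figure D1:**
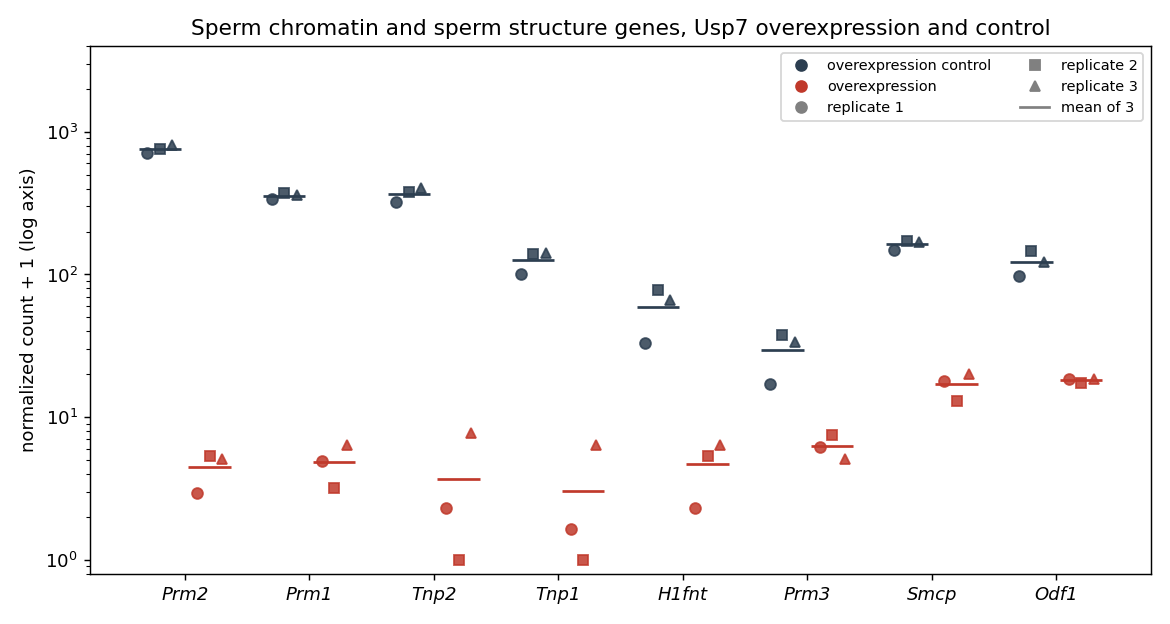
Normalized counts of the 7 genes and Prm3 in each overexpression and control library, on a log axis of the value plus the pseudocount. The points of the 2 groups are apart for every gene, with Prm1, Prm2, Tnp1, Tnp2 and H1fnt at 0 to 6.79 in overexpression and Smcp and Odf1 at 12.02 to 19.01.

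The structure genes kept a measurable level in overexpression. Smcp gave 147, 172 and 169 normalized counts in controls and 16.9, 12.02 and 19.01 in overexpression. Odf1 gave 96.6, 144 and 122 in controls and 17.6, 16.4 and 17.6 in overexpression. Every overexpression library was below every control for both genes, while the overexpression mean was 9.83% of the control mean for Smcp and 14.2% for Odf1. The log2 folds were -3.29 ± 0.24 (SE) and -2.73 ± 0.24. Control replicate 1 was the lowest control for all 7 genes, as it was for 119 (51.1%) of the 233 transcripts that were lower without overlap.

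Between genes, levels were compared as normalized counts per kb of transcript in the overexpression controls. Prm2 was the highest at 1224 ± 79.7 (SD, n = 3), followed by Prm1 at 758 ± 32.3 and Tnp2 at 664 ± 72.9. Prm1 and Tnp2 overlapped between libraries, and all other neighbours in the order were separate. Below them came Tnp1 at 289 ± 50.9, Smcp at 189 ± 15.9, Odf1 at 109 ± 21.5 and H1fnt at 44.4 ± 17.6. Within each control library, Prm2 was 1.62 ± 0.09 times Prm1 per kb, and Tnp2 was 2.32 ± 0.19 times Tnp1.

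In knockdown, the 2 listed genes were also lower than in their own controls, beside 52.8% of the 3156 listed transcripts that were lower without overlap. Smcp gave 66.2, 55.4 and 61.2 normalized counts in knockdown controls and 21.8, 24.9 and 27.7 in knockdown. Odf1 gave 56.4, 58.9 and 46.5 in controls and 13.5, 19.5 and 15.2 in knockdown. No knockdown library reached the level of a control for either gene. The knockdown mean was 40.7% of the control mean for Smcp and 29.8% for Odf1, and the log2 folds were -1.26 ± 0.18 (SE) and -1.69 ± 0.22. Both passed limma's test at a Benjamini-Hochberg adjusted p under 0.05, as did 50.7% of 2902 transcripts in the lower direction and 49.1% in the higher direction.

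Scaled to column totals of the listed transcripts, the knockdown folds were -2.05 for Smcp and -2.47 for Odf1, and the calls of the whole table went from 1426 higher and 1472 lower to 264 and 1547. Set side by side, Smcp was lower than Odf1 in relative terms in overexpression, and Odf1 lower than Smcp in knockdown. The tables were normalized separately, so levels are not compared across them and this difference in order was not tested.

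**Figure D2:**
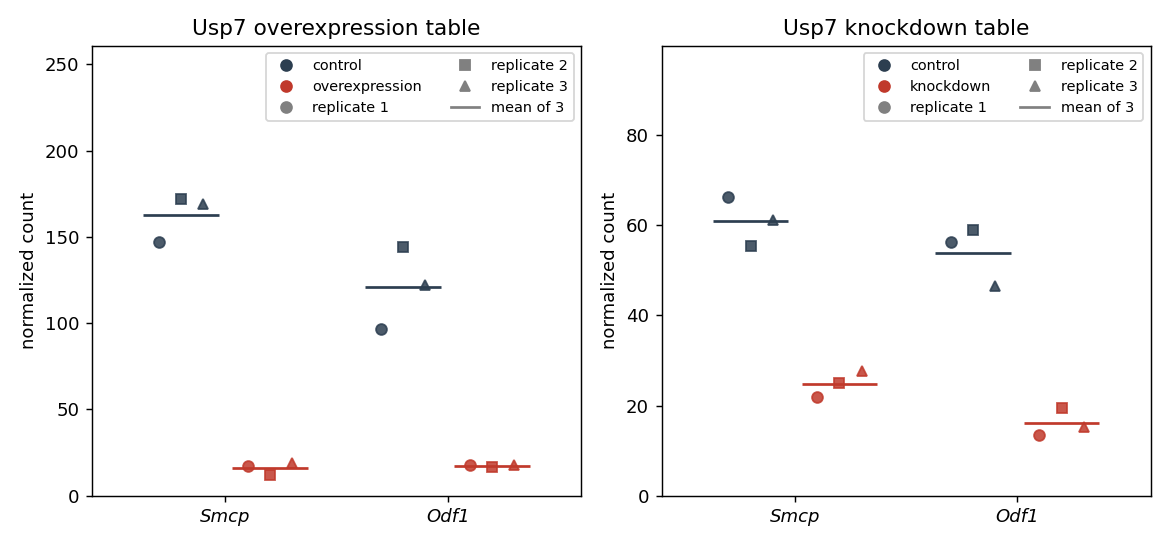
Normalized counts of Smcp and Odf1 in the 3 libraries of each of the 4 groups, with a line at each group mean. Both genes lie below their own controls in overexpression (12.02 to 19.01) and in knockdown (13.5 to 27.7), and each table has its own normalization.

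The cluster on chromosome 16 was read as a unit, since Prm1, Prm2, Prm3 and Tnp2 are neighbours there. Prm3, which is not among the 7 genes, gave 16.1, 36.6 and 32.4 normalized counts in controls and 5.20, 6.56 and 4.07 in overexpression, a log2 fold of -2.16 ± 0.38 (SE). All 4 coding genes of the cluster were listed as lower in overexpression and none of the 4 was listed for knockdown. None of the 16 other coding genes within 500 kb was listed for overexpression. The nearest of them were Socs1, an inhibitor of cytokine signalling 2.399 kb away, and Rmi2, a subunit of a DNA repair complex 38.2 kb away. In knockdown 4 of these 16 were listed, Emp2 at -1.90 ± 0.43, the tektin Tekt5 at -1.52 ± 0.35, Snn at 1.28 ± 0.20 and Rsl1d1 at 0.63 ± 0.10 (log2 fold, SE). Rsl1d1 was -0.18 with column totals. Few genes were listed at all. Of 32851 RefSeq promoter windows, 209 belonged to genes lower and 360 to genes higher in overexpression. For knockdown 1482 windows belonged to lower and 1244 to higher genes. Nothing is read from the counts of listed neighbours.

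**Figure D3:**
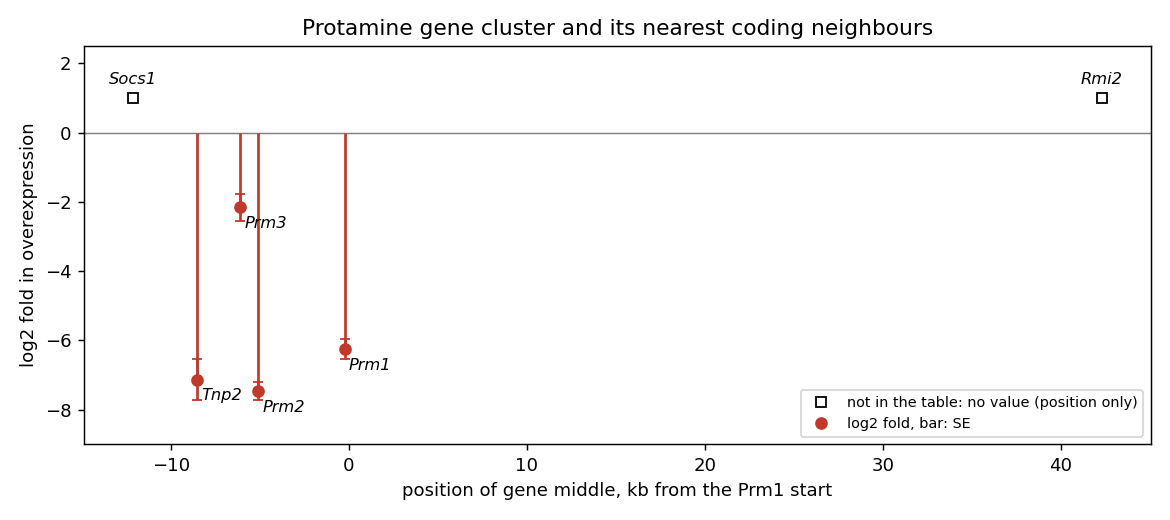
Log2 fold in overexpression (SE bars) of the 4 genes of the protamine cluster, by distance in kb from the Prm1 start. Prm1, Prm2 and Tnp2 lie at -6.26 to -7.46 and Prm3 at -2.16, while the open squares mark the positions of Socs1 and Rmi2, which have no value.

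Genes with a profile like the mean of the 7 were ranked by the root-mean-square difference of centred log2 values over the 6 libraries of a table. In overexpression the 5 closest were 4930407I10Rik, Spem2, Spata31d1b, Trim12a and Trim80, at 0.392 to 0.495. The 7 genes themselves lay farther from their mean, at 0.565 (Prm1) to 1.279 (Odf1). Spem2 stood at 61.3 ± 3.43 normalized counts in controls and 1.25 ± 0.139 in overexpression (SD, n = 3). 4930407I10Rik gave 39.2, 87.6 and 72.1 in controls and 1.30, 0 and 1.36 in overexpression. The overexpression values amount to 4 reads in all for Spem2 and 3 for 4930407I10Rik, so the small SD of Spem2 is no measure of precision. Spata31d1b, Trim12a and Trim80 were at 0 in all 3 overexpression libraries, against 22.03 to 23.3 on average in controls. Against a floor of 3 reads over the overexpression group they were at least 22.4-fold, 22.5-fold and 21.3-fold lower. For Smcp and Odf1 in knockdown the closest were Capn11, Morn4, Frat1, Ankef1 and CK137956, at 0.047 to 0.076. By Pearson correlation over the same 6 libraries none of the overexpression 5 and 1 of the knockdown 5 was again among the closest 5.

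The other genes of sperm chromatin did not all lie on the same side. Of a list of 30 genes of sperm chromatin and histone replacement, 9 were listed for overexpression and 8 tested. Of these 8, 7 were lower and 1 higher, beside 34.7% lower and 65.3% higher of 613 transcripts tested. Their median log2 fold was -4.77 beside 1.31 over all transcripts tested. Without the genes followed here, 3 were tested, with 1 higher and a median of -1.62. The gene that rose was Brdt, a bromodomain reader of acetylated histones needed for histone removal in mouse spermatids, at 2.25 ± 0.27 (SE). It is named for being the only one. In knockdown 3 of the 30 were listed, and Brdt fell there, with a log2 fold of -1.35 ± 0.15. The testis linker histone Hist1h1t fell too (-1.21 ± 0.26), and Tssk6, a kinase of spermatids, rose by 0.93 ± 0.17.

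Genes of the sperm flagellum and mitochondrial sheath were split in overexpression. Of 34 genes, 12 were listed and tested, with 7 lower and 5 higher and a median of -1.42. Without Smcp and Odf1 there were 5 of each and a median of 0.05. Over all 613 transcripts tested, 34.7% were lower, 65.3% were higher and the median was 1.31. Spem1, which is needed to clear cytoplasm from the mouse sperm head and neck, gave 52.3, 37.7 and 48.1 normalized counts in controls and 1.95, 0 and 2.72 in overexpression, a log2 fold of -4.39 ± 0.47. Spag6l, a protein of the central apparatus of cilia, went the other way, from 14.1, 17.7 and 8.32 to 115, 80.9 and 96.4. In knockdown all 16 tested genes of this list were lower, beside 50.7% of 2902 transcripts tested. Their median was -1.32, beside -0.61 over all transcripts tested. Akap3, an anchoring protein of the fibrous sheath, had a log2 fold of -1.54 ± 0.14 there and Spag6l of -1.52 ± 0.13.

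The listed genes for the storage and translation of haploid mRNA were higher in overexpression. Of 27 genes, 7 were listed and tested and all 7 rose, with a median of 1.92. Over all 613 transcripts tested, 65.3% were higher and the median was 1.31. With median-of-ratios scaling 5 of the 7 were past the test and the median was 0.80. Under that scaling 201 of 594 transcripts tested were higher and the median over all was -0.01. Piwil1, a piRNA-binding protein of meiotic and haploid male germ cells, went from 49.3, 62.1 and 62.0 normalized counts in controls to 667, 528 and 929 in overexpression (log2 fold 3.56 ± 0.21). The poly(A)-binding proteins Pabpc6 and Pabpc2 rose by 2.97 ± 0.22 and 2.25 ± 0.20, and the tudor protein Rnf17 by 1.92 ± 0.36. The other 3 were Ddx25, Papolb and Ybx2, the last a binder of stored protamine mRNA. In knockdown the same symbols were listed and all 7 fell, with a median of -1.41. Over all 2902 transcripts tested there, 50.7% were lower and the median was -0.61. Ybx2 went in knockdown from 787, 808 and 810 to 246, 253 and 337 (log2 fold -1.53 ± 0.13).

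Of 18 genes of the haploid transcription program around CREM, Gtf2a1l, a germ cell form of a TFIIA subunit, was the only one listed for overexpression, where it rose by 1.68 ± 0.29 on the log2 scale. In knockdown Gtf2a1l had a log2 fold of -1.42 ± 0.17 and Sox30, a regulator of spermatid genes in the mouse, of -1.55 ± 0.16. Both were past the test, as were all but 4 of the 2902 transcripts tested, 50.7% of them lower. Crem was in neither table and was not analysed here.

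**Figure D4:**
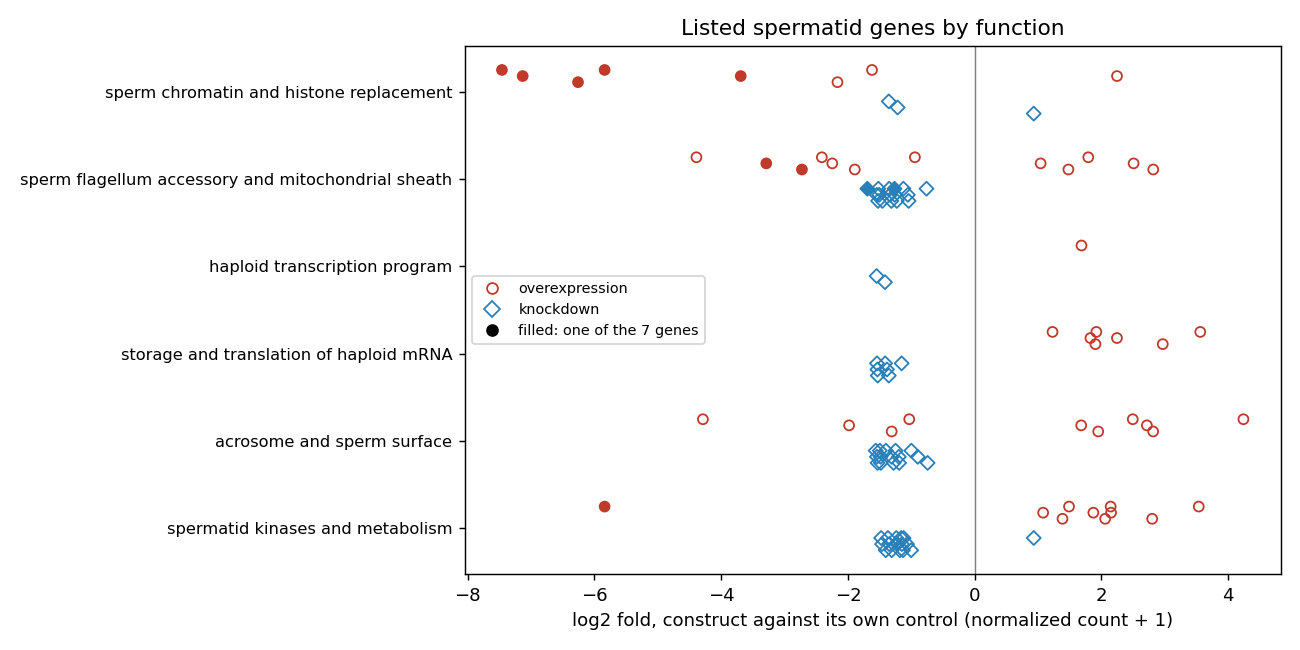
Log2 fold of each tested gene of the 6 lists in overexpression and in knockdown, with the 7 genes marked. In overexpression the chromatin list reaches -7.46 while the storage and translation list lies above 0, and in knockdown nearly all points lie below 0.

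Markers of male germ cell stages were summed beside these results. Of 17 spermatid markers, 8 were listed for overexpression, the 7 genes and Oaz3, and their sum was 63.4 to 92.3 normalized counts in overexpression against 1871 to 2222 in controls. Of 18 spermatocyte markers, 8 were listed and all 8 were higher, beside 65.3% of 613 transcripts tested. Their sum was 1548 to 2000 against 320 to 359, with overexpression means of 708 for Piwil1 and 693 for Ldhc making up most of it. With median-of-ratios scaling their log2 folds were 0.003 (Sycp1) to 2.35 (Piwil1). In knockdown 4 spermatid markers, Smcp and Odf1 among them, summed to 68.6 to 77.6 against 190 to 212 in controls. The 10 spermatocyte markers listed there, all lower beside 50.7% of 2902 transcripts tested, summed to 2069 to 2224 against 4968 to 5598. The spermatid sums are mostly made of the genes followed here, so they are no separate evidence. Without these genes, 1 spermatid marker was left in overexpression (log2 fold -2.25) and 2 in knockdown (median -1.38), all lower. Smcp and Odf1 had the direction of the spermatocyte markers in knockdown, and the 7 genes had the opposite direction in overexpression, which was not tested. Acr, Akap4, Izumo1 and Gapdhs, further spermatid markers, were in neither table and were not analysed here.

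For cells of the ovary, none of 15 oocyte and none of 12 granulosa markers was listed for overexpression. In knockdown the oocyte marker Nobox was at 0 to 0.779 normalized counts against 1.22 to 33.8 in controls, the high value being control replicate 2 alone. Of 12 fibroblast or feeder markers, S100a4 was listed for overexpression, at 1618 to 1833 against 962 to 1176, and 4 were listed for knockdown. Of 11 Sertoli markers, Gata1 was listed for overexpression, at 234 to 285 against 115 to 128, and 4 were listed for knockdown. With median-of-ratios scaling the log2 folds of S100a4 and Gata1 in overexpression changed sign. The part of any of these cell types in the levels of the 7 genes was not tested.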

How the data were processed

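Total RNA libraries were made with a TruSeq kit, and Bowtie 0.12.2 with mm10 (GRCm38) is named in the submitters' processing notes. No source used here names the counter or the annotation. The deposited tables give, per library, a count divided by a single size factor (a normalized signal, here "normalized count"). They also give the authors' log2 fold change with its standard error, a test score, a p-value and an adjusted p-value. Each library value was a multiple of what 1 read is worth in its column (100% of values, tolerance 0.001 of a read). Of 12 columns, 10 were accepted as giving back reads, among them all 6 of knockdown, and count models were used only there. In the other 2, overexpression replicate 1 had too few low values to test the step and overexpression control replicate 1 had a step too close to 1 to be told from rounding. Read numbers given for overexpression are values divided by the step, and rest in these 2 columns on a step that was not accepted. Total depth is unknown, since the tables hold selected transcripts: listed reads summed to 114249 to 211043 per library for overexpression and 2546675 to 7079919 for knockdown. Between replicates of a group, chi-square per transcript was 1.69 to 30.7, and each was kept as its own library.

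The planned count test was replaced because the values are normalized. Folds came from limma 3.58.1 under R 4.3.3, run on log2(value + 1) with its variance trend over each whole table. Transcripts needed 10 or more in 3 or more libraries and a sum of 15 or more, and p-values had Benjamini-Hochberg adjustment. Fold changes are on that scale, which understates changes of low genes. edgeR 4.0.16 and DESeq2 1.42.0 were alternatives on recovered reads. Simulated data, in which 200 transcripts were changed, were used to test the script. Since the tables hold transcripts selected on the same libraries, calls are not independent evidence. Gene positions, promoters and transcript lengths are from RefSeq (GRCm38.p6) and GENCODE (GRCm38), and their starts can differ.

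The 7 genes, the 6 pathway lists and the 7 marker lists were chosen with earlier results of these data known. Named genes were the 7, up to 4 of each list and table with the largest absolute log2 fold, the 5 closest profiles, and listed genes within 500 kb of the protamine cluster. Brdt in overexpression and single markers were named outside this rule, after their values were seen. List genes that failed the filter, such as H2al2a and Prss55 in overexpression, were not tested.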

Additional observations from a re-analysis of the deposited data

How the results depend on the processing

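All 7 genes in overexpression and both in knockdown stayed lower and past the threshold under every alternative run. These were pseudocounts of 0.5 and 5, median-of-ratios, column-total and TMM scaling, no filter, each library left out and, in knockdown, no scaling, edgeR and DESeq2. Count models and unscaled reads were not run for overexpression. Over 136 alternative log2 folds of these genes and Prm3 computed here, all were below 0, and 23 moved by more than the spread between replicates. Of the 10 folds for them in the authors' deposited table, all below 0, 1 lay that far from the fold here, Prm2 at -7.91. Leaving out a library gave -6.49 to -5.99 for Prm1, -7.62 to -7.19 for Prm2, -6.61 to -5.27 for Tnp1, -7.92 to -6.44 for Tnp2, -4.06 to -3.24 for H1fnt, -3.42 to -3.11 for Smcp and -2.88 to -2.59 for Odf1 in overexpression. In knockdown it gave -1.34 to -1.18 for Smcp and -1.83 to -1.58 for Odf1. Replicate numbers did not pair the libraries (correlations of deviations -0.113 to 0.045 in overexpression and -0.102 to -0.015 in knockdown, and most libraries matched another number best). With the replicate number as a block the counts stayed 7 and 2, and the calls over all transcripts stayed 400 higher and 213 lower in overexpression, and 1426 and 1472 in knockdown.

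Median-of-ratios scaling moved the median of all overexpression folds by -1.33 and TMM by -0.85, and column totals moved that of knockdown by -0.84. Under median-of-ratios scaling in overexpression, 2 flagellum genes were higher by limma in place of 5, Prm1 was -7.33, Prm2 -8.51, Smcp -4.46 and Odf1 -3.90, and the acrosome list had a median of -0.87 in place of 1.82. Tekt4 and Gykl1 changed sign, to -0.16 and -0.11. The storage and translation list went from 7 genes higher to 5 and its median from 1.92 to 0.80, with Ybx2 at 0.01, and the kinase and metabolism list from 9 to 6 and from 1.97 to 0.76. The haploid transcription list, which is Gtf2a1l alone, then had 0 genes higher by limma, also 0 at an unadjusted p under 0.05. Under column totals in knockdown, the chromatin list and the kinase and metabolism list each had 0 genes higher by limma in place of 1, Tssk6 in both, also 0 at an unadjusted p under 0.05. Depth limits Prm1, Prm2, Tnp1, Tnp2 and H1fnt in overexpression, where the values amount to 0 to 6 reads of each per library.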

Other observations

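Further groups of spermatid genes were read beside the protamines, for their directions in each construct. Of 44 genes of the acrosome and sperm surface, 11 were listed for overexpression and 10 tested, with 6 higher and 4 lower. Over all 613 transcripts tested, 65.3% were higher and 34.7% lower. The median of the list was 1.82, beside 1.31 over all transcripts tested. With median-of-ratios scaling it was -0.87, beside -0.01 over all. Tex101, a surface protein of germ cells, went from 3.02, 5.54 and 8.32 normalized counts in controls to 131, 90.7 and 136 in overexpression (log2 fold 4.24 ± 0.35, SE). Ly6k, its partner on mouse sperm precursors, rose by 2.82 ± 0.37. Actrt2, an actin-related protein of the sperm head, went the other way, from 31.2, 34.4 and 34.2 to 0, 4.37 and 0 (log2 fold -4.29 ± 0.58, and -5.10 without overexpression replicate 2). In knockdown all 15 tested transcripts of 14 genes of this list were lower, with a median of -1.31. Over all transcripts tested there, 50.7% were lower and the median was -0.61. Acrv1, an acrosomal protein, had a log2 fold of -1.53 ± 0.29 there and the calyx protein Cylc2 of -1.54 ± 0.29.

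Of 39 genes of spermatid kinases and metabolism, 10 were tested in overexpression and 9 were higher, with a median of 1.97. With median-of-ratios scaling 6 were higher and the median was 0.76, beside 201 higher of 594 transcripts tested and a median of -0.01 over all. Over all transcripts tested with the authors' scaling, 65.3% were higher and the median was 1.31. Tnp1, which is on this list too, was the lower gene. The testis forms of cytochrome c oxidase subunits Cox7b2 and Cox8c rose by 3.54 ± 0.64 and 2.80 ± 0.46, and Cox7b2 was 2.71 without overexpression control replicate 1. In knockdown 16 were tested and 15 were lower, beside 50.7% of 2902 transcripts tested. The median of the 16 was -1.20, beside -0.61 over all transcripts tested. Among them Ppp3r2, a testis calcineurin subunit, went from 335, 296 and 277 normalized counts to 111, 117 and 112, and Tssk6 was the higher gene. No explanation was weighed for these directions.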
